A study of Mus musculus with 36 samples.

Results

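The 9 genes of the B cell receptor and the B cell surface described here were followed through plasma cells of 2 cohorts of transgenic mice. The members are Cd79a, Cd79b, Ms4a1, Cd22, Cd72, Vpreb3, Fcmr, Blk and Cr2, chosen by name from 54203 genes, and their estimated reads were summed per gene. Plasma cells positive for CD138, TACI and a reporter were sorted from mouse bone marrow (strain C57/BL6), 2000 cells per library, and 36 libraries fell into 8 groups. In cohort D there were 4 libraries of Control(D), 4 of Ccnd1, 4 of Ikk2ca(D) and 6 of Ccnd1-Ikk2ca, a genotype with both transgenes. In cohort M there were 4 of Control(M), 4 of MMSET, 4 of Ikk2ca(M) and 6 of MMSET-Ikk2ca. The study compared transgenic plasma cells of mouse models made for particular subgroups of myeloma, the malignancy of this cell type. Ccnd1 encodes cyclin D1, MMSET is a histone methyltransferase encoded by Nsd2, and IKK2 is a kinase of the NF-kB pathway encoded by Ikbkb. The promoter or Cre line that drives each transgene, the alleles carried by the controls and the age of the mice are not given in the sources used here. Nothing in the labels says that libraries of a group came from separate animals, so each p-value measures the spread between these samples.

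The B cell receptor is a membrane immunoglobulin bound to a pair of signalling chains, Ig-alpha (Cd79a) and Ig-beta (Cd79b), which have to be made together for the receptor to reach the cell surface. Around it stand receptors that lower its threshold or dampen it, and Src-family kinases that phosphorylate its tails. Plasma cells secrete their immunoglobulin, and most of the B cell surface programme is turned down as B cells become plasma cells, although plasma cells that make IgM or IgA can keep some receptor.

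By role the members divide as follows. Cd79a (chromosome 7, 24897381 to 24902197, plus strand) and Cd79b (chromosome 11, 106311341 to 106314762, minus strand) are the signalling chains. Blk (chromosome 14, 63372836 to 63417037, minus strand) is a Src-family kinase of B cells. Cr2 (chromosome 1, 195136811 to 195176716, minus strand) encodes complement receptors of B cells. Cd22 (chromosome 7, 30865402 to 30880342, minus strand) and Cd72 (chromosome 4, 43446462 to 43454628, minus strand) encode inhibitory receptors. Fcmr (chromosome 1, 130865669 to 130880791, plus strand) encodes the Fc receptor for IgM. Ms4a1 (chromosome 19, 11249675 to 11266241, minus strand) encodes CD20, a tetraspanning membrane protein. Vpreb3 (chromosome 10, 75943057 to 75949657, plus strand) encodes a relative of the surrogate light chain that is retained inside the cell. All positions are whole genes on build GRCm38. The library protocol does not mark strand, so reads of Ms4a1 and Cd22 cannot be told apart from those of the antisense genes 4930526L06Rik and Gm29439 that overlap them, nor can Cd72 from Tesk1 or Vpreb3 from the pseudogene Gm16221 where they overlap.

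Promoter sequence was found for 6 of the 9 members in RefSeq's table for GRCm38.p6. Stretches of 3 of them are printed, without annotated exons, because Cd79a and Vpreb3 had the lowest adjusted p-values of the members between Ccnd1-Ikk2ca and Control(D) and Cd22 holds a match of another kind. Capitals mark motif matches, and the first and last base are counted from RefSeq's gene start. The Cd79a stretch is chr7:24897247-24897380 (plus strand, -250 to -117), the Vpreb3 stretch chr10:75948050-75948299 (plus strand, -250 to -1) and the Cd22 stretch chr7:30879029-30879176 (minus strand, -148 to -1).
Cd79a: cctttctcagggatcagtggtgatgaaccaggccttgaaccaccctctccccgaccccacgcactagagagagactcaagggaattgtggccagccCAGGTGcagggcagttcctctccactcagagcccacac
Vpreb3: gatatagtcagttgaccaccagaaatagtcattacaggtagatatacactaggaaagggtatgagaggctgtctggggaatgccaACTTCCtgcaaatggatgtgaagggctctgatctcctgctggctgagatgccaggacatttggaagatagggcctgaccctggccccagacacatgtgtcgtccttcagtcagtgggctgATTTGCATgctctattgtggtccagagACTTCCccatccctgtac
Cd22: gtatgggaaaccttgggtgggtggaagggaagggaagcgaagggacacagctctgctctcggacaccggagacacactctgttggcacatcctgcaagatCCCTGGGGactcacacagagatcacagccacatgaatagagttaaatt
The 4 motifs described next were searched on both strands in the 250 bases before the start. The octamer, ATGCAAAT or on the other strand ATTTGCAT, occurred in 1 of the 6 members, Vpreb3, and in 1.60% of all 32851 promoters. The E-box, CAGGTG or on the other strand CACCTG, occurred in 3 of the 6 and in 17.2% of promoters, and in Cd79a it begins at -154. The ETS core, GGAAGT or on the other strand ACTTCC, was found in 4 of 6 and in 19.7% of promoters. The EBF-type palindrome CCCNNGGG occurred in Cd22 alone of the 6 and in 11.8% of promoters. The counts include an ETS match in Cd79a at -54 and an E-box match in Cd22 at -245. Both lie in annotated exons and outside the printed stretches. None of these motifs overlaps another in the stretches printed, and a match describes letters, not binding. Sites that depart from these letters, such as imperfect palindromes, were not searched.

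The sorted surface markers were present. Sdc1, which encodes CD138, lay between 272 and 622 CPM in all 36 libraries, and Tnfrsf13b, which encodes TACI, between 150 and 420 CPM; CPM is a library's read count scaled to a common total with TMM over the 36. Ccnd1 lay at 253 to 988 CPM in its 10 carrier libraries and at no more than 3.54 elsewhere. Nsd2, the gene for MMSET, lay at 175 to 815 CPM in carriers and at no more than 9.83 elsewhere, and Ikbkb, the gene for IKK2, at 42.3 to 82.3 against 10.5 to 38.7. Libraries held 54.1 to 97.6 M estimated reads, of which 43.9% to 73.0% came from immunoglobulin genes.

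Cd79a had the lowest adjusted p of the members in both double groups against their controls. In Control(D) its level was 659, 607, 705 and 427 CPM, in Ccnd1 865, 520, 682 and 377, and in Ikk2ca(D) 479, 274, 363 and 296. The 6 Ccnd1-Ikk2ca libraries ran from 60.4 CPM over a median of 79.1 to 129, so that each lay below each library of the other 3 groups of the cohort. Against Control(D) Cd79a fell by 2.86 on the log2 scale (SE 0.24, 95% interval -3.36 to -2.36, edgeR quasi-likelihood adjusted p = 2.97e-06), lower in 6 of 6 libraries. In bulk RNA such as this, fewer cells of a type and less RNA per cell cannot be told apart. Cd79a also fell by 2.08 against Ikk2ca(D) (edgeR adjusted p = 1.67e-04) and by 2.89 against Ccnd1 (edgeR adjusted p = 3.13e-06). The call against Ikk2ca(D) was lost when all 36 libraries were put in 1 fit (adjusted p = 0.0618).

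In cohort M the level of Cd79a went far lower. Control(M) libraries held 386, 351, 330 and 326 CPM and Ikk2ca(M) libraries 243, 132, 174 and 276. MMSET libraries held 188, 33.9, 27.3 and 44.1 CPM, with replicate 1 well above the other 3. The MMSET-Ikk2ca libraries held 0.377 to 4.59 CPM with a median of 1.61, which is 27 to 368 reads per library, and the highest of them lay below the lowest library of all other groups. Against Control(M) Cd79a fell by 7.55 in MMSET-Ikk2ca (SE 0.71, 95% interval -9.07 to -6.04, edgeR adjusted p = 1.83e-05), lower in 6 of 6 libraries. It fell by 6.78 against Ikk2ca(M) (edgeR adjusted p = 1.60e-04) and by 5.32 against MMSET (edgeR adjusted p = 7.16e-04). Each of these 3 calls held when any 1 of the 18 libraries was left out, with adjusted p of at most 0.00369, and the difference from MMSET was -4.23 without MMSET replicate 1.

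MMSET alone gave a value that hung on 1 library. With all 4 libraries the log2 difference of Cd79a from Control(M) was -2.24 (SE 0.67, 95% interval -3.66 to -0.81, edgeR adjusted p = 0.166), and without MMSET replicate 1 it was -3.32 (SE 0.59, edgeR adjusted p = 0.00985). MMSET replicate 1 also held 2821 CPM of 11 summed neutrophil markers against 51.1 to 174 CPM in MMSET replicates 2 to 4, and 8.86 CPM of Blk against 0.0444 to 1.10. The part of other cells in its Cd79a level was not tested. For Ikk2ca alone the difference was -0.77 in both cohorts, uncalled in each (SE 0.26, edgeR adjusted p = 0.192 in D; SE 0.64, edgeR adjusted p = 0.755 in M). Ccnd1 alone gave 0.03 (95% interval -0.51 to 0.57).

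**Figure D1:**
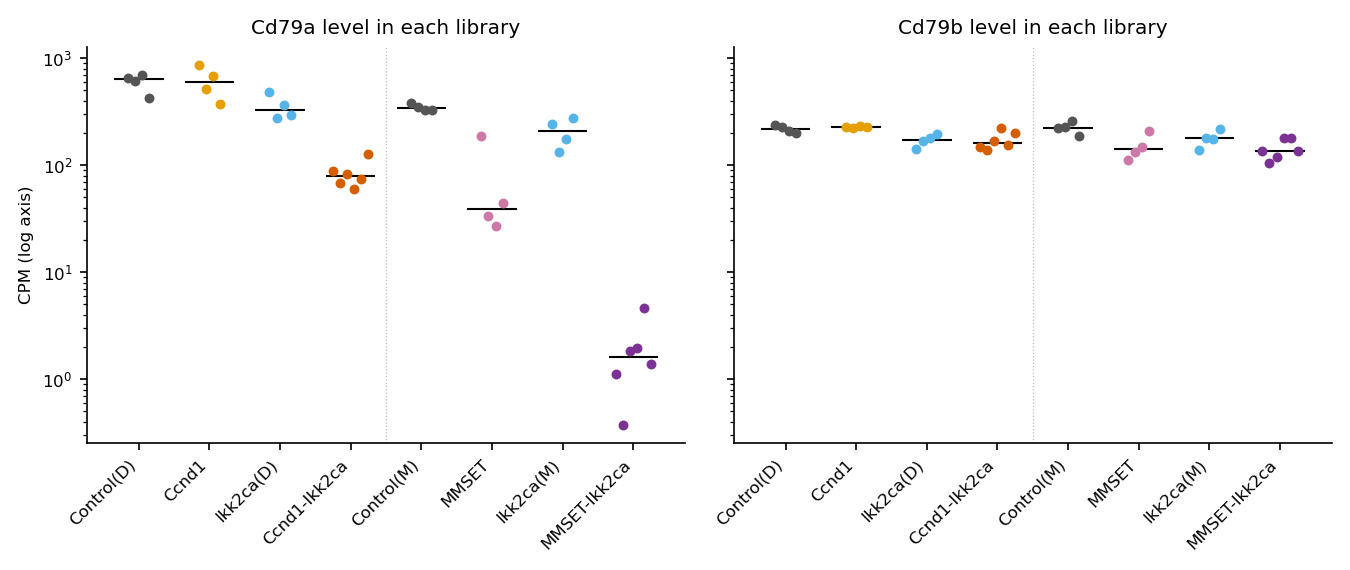
Level of Cd79a (left) and Cd79b (right) in each of the 36 libraries, in CPM on a log axis, by group; bars are group medians and the dotted line parts the cohorts. Cd79a spans 0.377 to 865 CPM, with all 6 MMSET-Ikk2ca libraries at the bottom, and Cd79b spans 106 to 258 CPM.

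Cd79b, the partner chain, moved within a narrow range. Its 4 Control(D) libraries held 201 to 237 CPM and its 4 Control(M) libraries 188 to 258. In Ccnd1-Ikk2ca it ran from 138 over a median of 161 to 224 CPM, and in MMSET-Ikk2ca from 106 over a median of 135 to 180 CPM. The fall against Control(M) was 0.67 on the log2 scale (SE 0.18, 95% interval -1.05 to -0.30, edgeR adjusted p = 0.0300), with all 6 libraries below the 4 controls. That call was lost without Control(M) replicate 1, 2 or 3 or MMSET-Ikk2ca replicate 1, 2, 3 or 6, where adjusted p reached 0.101. Against Control(D) the Ccnd1-Ikk2ca difference was -0.36 (95% interval -0.64 to -0.08, edgeR adjusted p = 0.0933). Both Cd79b transcripts were seen in all 36 libraries, and Cd79b-202 took 78.4% to 85.1% of the gene's reads; Cd79a has 1 annotated transcript.

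Since the chains differ in length, their balance was taken from TPM, which is a share per transcript length. The ratio of Cd79a to Cd79b TPM was 2.25, 2.14, 2.75 and 1.73 in Control(D) and 1.41, 1.25, 1.04 and 1.41 in Control(M), so Cd79a was the more abundant chain in each control. It was below 1 in all 6 Ccnd1-Ikk2ca libraries (0.219, median 0.401, highest 0.516). In MMSET-Ikk2ca it was 0.00290 at the lowest, 0.00864 at the median and 0.0208 at the highest. The mean log2 ratio differed from that of the controls by -2.50 in Ccnd1-Ikk2ca and by -7.22 in MMSET-Ikk2ca. The exact two-sided permutation p was 0.00952 for each, the smallest that 6 against 4 libraries can give, and 0.0286 after Benjamini-Hochberg adjustment over 6 comparisons. In MMSET the ratios were 1.36, 0.205, 0.152 and 0.173 (exact permutation p = 0.0857, adjusted 0.171). This ratio was chosen after the levels were seen.

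**Figure D2:**
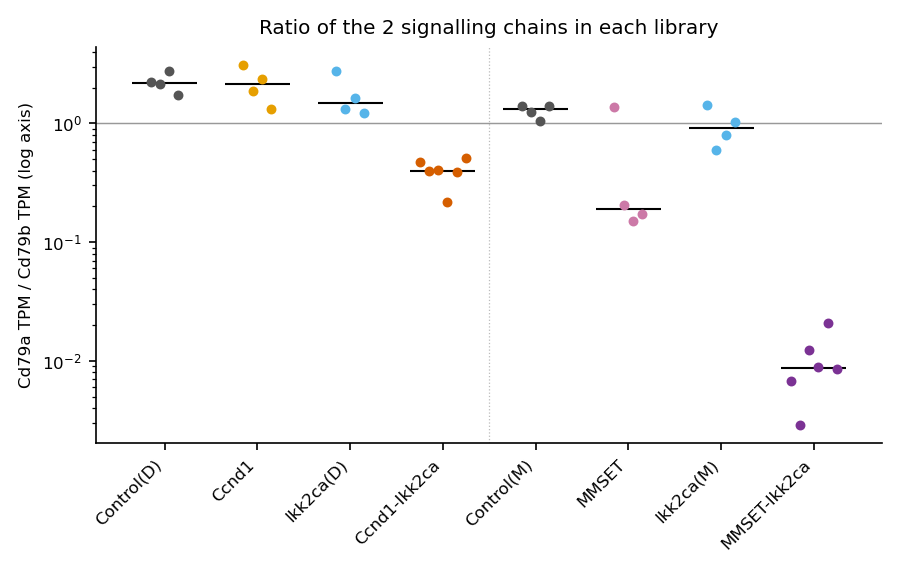
Ratio of Cd79a TPM to Cd79b TPM in each library on a log axis, by group; bars are group medians, the grey line is a ratio of 1 and the dotted line parts the cohorts. All control libraries lie above 1, all Ccnd1-Ikk2ca libraries at or below 0.516 and all MMSET-Ikk2ca libraries at or below 0.0208.

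Whether the effects of the transgenes added up was tested with interaction terms. For Cd79a the interaction of Ccnd1 and Ikk2ca was -2.12 (SE 0.35, edgeR adjusted p = 0.0310), a larger fall in the double group than the sum of the single effects on the log2 scale. It was called in that 1 member of 9, with 0.0261% of all genes called lower. Adjusted p rose as high as 0.120 when a library was left out, and the call was lost without Control(D) replicate 1, 2, 3 or 4, Ccnd1 replicate 1, 2 or 3, Ikk2ca(D) replicate 1, 3 or 4, or Ccnd1-Ikk2ca replicate 2, 4 or 5. The interaction of MMSET and Ikk2ca for Cd79a was -4.54 (SE 0.90, edgeR adjusted p = 0.0724), and -3.46 without MMSET replicate 1 (edgeR adjusted p = 0.0538). In that test edgeR called 0 of 8 members, against 0.0778% of all genes called lower. The limma voom fit called 0 as well and DESeq2 called 2. Before adjustment 5 members had an edgeR p under 0.05, in both directions. Cd79a and Blk (-5.73) had negative values, and Ms4a1 (1.81), Cd22 (5.62) and Fcmr (2.46) had positive ones. A positive value is a smaller fall in the double group than the sum of the single effects. Of the 8 values 6 were above 0, with a median of 1.57. For Cd22 the single differences were -4.27 in MMSET and -7.10 in Ikk2ca(M), where libraries held 2, 2, 60 and 0 reads. A fall by the sum of both could not be detected from such counts, so its positive value cannot be told apart from this floor.

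Directly against each other, MMSET-Ikk2ca held less Cd79a than Ccnd1-Ikk2ca by 5.48 on the log2 scale (SE 0.49, edgeR adjusted p = 2.57e-08), lower in 6 of 6 libraries. Here cohort and transgene cannot be told apart, so each double group was also set against its own control. The difference between those effects was -4.69 for Cd79a (SE 0.68, edgeR adjusted p = 5.60e-04), and the call held without any 1 of the 36 libraries. In the direct comparison 2 of 9 members were called lower, Cd79a and Blk, with 1.57% of all genes called lower. In the difference of effects 1 of 9 was called, with 0.117% of all genes. For Cd79b the difference of effects was -0.31 (95% interval -0.77 to 0.15). The call for Blk in the direct comparison (edgeR adjusted p = 0.0437) was lost without 21 of the 36 libraries, taken in turn, with adjusted p up to 0.111: Control(D) replicate 1, 2, 3 or 4, Ccnd1 replicate 2, 3 or 4, Ikk2ca(D) replicate 2, Ccnd1-Ikk2ca replicate 1 or 2, Control(M) replicate 1 or 4, Ikk2ca(M) replicate 2, 3 or 4, MMSET-Ikk2ca replicate 1, 2, 3, 4, 5 or 6.

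Blk did not exceed 1.90 CPM in either double group. Control(D) libraries held 18.7, 10.01, 9.27 and 22.1 CPM and Control(M) libraries 15.0, 2.50, 25.0 and 14.2. In Ccnd1-Ikk2ca 2 libraries held 1.90 and 1.63 CPM, 1 held a single read and 3 held none. In MMSET-Ikk2ca 1 library held 4 reads and 5 held 0, and a count of 0 allows up to 3 reads, or 0.0303 to 0.0444 CPM in the libraries without a Blk read. Summed over libraries, Blk had 3578 reads in Control(M) and 4 in MMSET-Ikk2ca (edgeR adjusted p = 2.57e-04, lower in 6 of 6 libraries). It was also called lower in MMSET-Ikk2ca than in Ikk2ca(M), with 856 reads (edgeR adjusted p = 0.00449), and than in MMSET, with 634 reads, of which MMSET replicate 1 held 542 (edgeR adjusted p = 0.00462), although the library with 4 reads lay above MMSET replicate 2, with 2. Without that replicate the last call held (edgeR adjusted p = 0.0143), and it was lost with limma voom (adjusted p = 0.189). Against Control(D) the sum went from 3861 reads to 247 in Ccnd1-Ikk2ca (edgeR adjusted p = 0.0378), a call lost without Control(D) replicate 1, 2, 3 or 4, Ccnd1 replicate 2 or 3, or Ccnd1-Ikk2ca replicate 3, 4, 5 or 6, with adjusted p up to 0.0777.

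CD20 kept part of its level. Ms4a1 stood at 111, 61.5, 84.2 and 92.0 CPM in Control(D) and at 14.1 to 41.6 CPM, median 32.3, in Ccnd1-Ikk2ca, without overlap. The fall was 1.53 (SE 0.35, 95% interval -2.27 to -0.79, edgeR adjusted p = 0.0101). In Control(M) it stood at 85.7, 132, 142 and 62.5 CPM, in MMSET at 33.1, 13.2, 9.45 and 35.6, and in MMSET-Ikk2ca at 22.0 to 69.3 with a median of 31.6. Ms4a1 fell by 2.21 in MMSET (SE 0.45, edgeR adjusted p = 0.0292, lower in 4 of 4 libraries) and by 1.47 in MMSET-Ikk2ca (SE 0.39, edgeR adjusted p = 0.0312), where 1 library lay inside the control range. The MMSET call was lost without Control(M) replicate 1, 2 or 3 or MMSET replicate 2 or 3 (adjusted p up to 0.122), and the MMSET-Ikk2ca call without Control(M) replicate 1, 2 or 3 or MMSET-Ikk2ca replicate 1, 2, 3 or 6 (up to 0.1005). Between MMSET-Ikk2ca and MMSET the difference in Ms4a1 was 0.74 (95% interval -0.12 to 1.59), whereas Cd79a was called lower in that comparison. Ms4a1 also fell by 1.33 in Ccnd1-Ikk2ca against Ccnd1 (edgeR adjusted p = 0.0317), a call lost without Ccnd1 replicate 3 or 4 or Ccnd1-Ikk2ca replicate 4 or 5 (up to 0.102).

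Vpreb3 fell in both double groups. It held 57.2, 55.4, 64.1 and 21.3 CPM in Control(D) and 84.1, 87.3, 62.4 and 70.0 in Ccnd1, while Ccnd1-Ikk2ca ran from 5.88 over a median of 10.01 to 17.0. Vpreb3 fell by 2.25 against Control(D) (SE 0.39, edgeR adjusted p = 0.00162) and by 2.88 against Ccnd1 (SE 0.39, edgeR adjusted p = 3.88e-04), lower in 6 of 6 libraries each time, and both calls held without any 1 library. In Ikk2ca(D), at 7.06, 9.88, 29.3 and 22.7 CPM, the difference of -1.53 (SE 0.43) missed the threshold (edgeR adjusted p = 0.132). The 4 Control(M) libraries held 36.4, 119, 10.6 and 9.15 CPM, a range that MMSET-Ikk2ca, at 1.90 to 15.3 with a median of 5.06, overlapped. The fall of 2.62 in that group (SE 0.72, edgeR adjusted p = 0.0380) was 1.39 without Control(M) replicate 2, where adjusted p was 0.205. It was also lost without Control(M) replicate 1, MMSET replicate 2, 3 or 4, Ikk2ca(M) replicate 1 or 2, or MMSET-Ikk2ca replicate 1, 2, 3 or 6.

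Fcmr fell in both double groups. Its control levels were 71.0, 40.0, 8.05 and 85.0 CPM in D and 59.4, 11.4, 138 and 42.1 in M. Ccnd1-Ikk2ca ran from 0.0122 over a median of 1.35 to 7.06 CPM, a fall of 4.48 (SE 1.16, edgeR adjusted p = 0.0233). The call was lost without Control(D) replicate 1 or 4 (up to 0.0541), and the difference was -5.24 without Ccnd1-Ikk2ca replicate 1. MMSET-Ikk2ca ran from 3.97 over 6.93 to 9.74 CPM, a fall of 3.23 (SE 0.63, edgeR adjusted p = 0.00551). That call held without any 1 library, and the difference was -2.49 without Control(M) replicate 3. In Ikk2ca(M), at 2.50, 7.10, 7.06 and 6.53 CPM, Fcmr fell by 3.46 (SE 0.74, edgeR adjusted p = 0.0425), lower in 4 of 4 libraries. That call was lost without any 1 of 14 of the 18 libraries (up to 0.142), and held without Control(M) replicate 2 or MMSET replicate 1, 2 or 3; the difference was -2.72 without Control(M) replicate 3. In Ikk2ca(D) the values were 44.1, 1.70, 9.02 and 2.82 CPM, with a difference of -1.84 (SE 1.22, edgeR adjusted p = 0.603).

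The inhibitory receptors were low and uneven in controls. Cd22 held 18.5, 5.64, 1.23 and 26.3 CPM in Control(D) and 32.4, 1.47, 88.1 and 12.3 in Control(M). In Ccnd1-Ikk2ca 4 of 6 libraries had 0 reads, and in MMSET-Ikk2ca 5 of 6 had reads, at no more than 1.19 CPM. Cd22 was called lower in MMSET-Ikk2ca, with 302 summed reads against 8459 in Control(M) (log2 difference -5.76, SE 1.63, edgeR adjusted p = 0.0458), a call lost without any 1 of 13 of the 18 libraries (up to 0.131) and held without Control(M) replicate 2, MMSET replicate 2 or 3 or Ikk2ca(M) replicate 3 or 4. Without Control(M) replicate 3 the difference was -4.63. The lowest Cd22 group was Ikk2ca(M), with 64 summed reads (2, 2, 60 and 0 per library), all below the controls, but its difference of -7.10 was not called (SE 2.08, edgeR adjusted p = 0.177), nor was that of -4.27 in MMSET (edgeR adjusted p = 0.320). Cd22 was not called by edgeR in Ccnd1-Ikk2ca (-5.04, SE 1.58, adjusted p = 0.0524). Cd72 went from 2064 summed reads in Control(D) to 145 in Ccnd1-Ikk2ca (edgeR adjusted p = 0.0566) and from 2532 in Control(M), of which replicate 3 held 1863, to 291 in MMSET-Ikk2ca (edgeR adjusted p = 0.0676). Neither Cd72 difference was called by edgeR, whereas DESeq2 called all 9 members lower in Ccnd1-Ikk2ca and all 8 in MMSET-Ikk2ca, Cd72 among them.

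Cr2 was at the edge of detection throughout. No library exceeded 2.44 CPM, and 22 of the 36 held 0 reads, which allows up to 3 reads, or 0.0327 to 0.0550 CPM. All 6 Ccnd1-Ikk2ca libraries were among these (edgeR adjusted p = 0.0533 against Control(D), which held 77 reads in all). In cohort M it failed the low-count filter and was not tested.

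**Figure D3:**
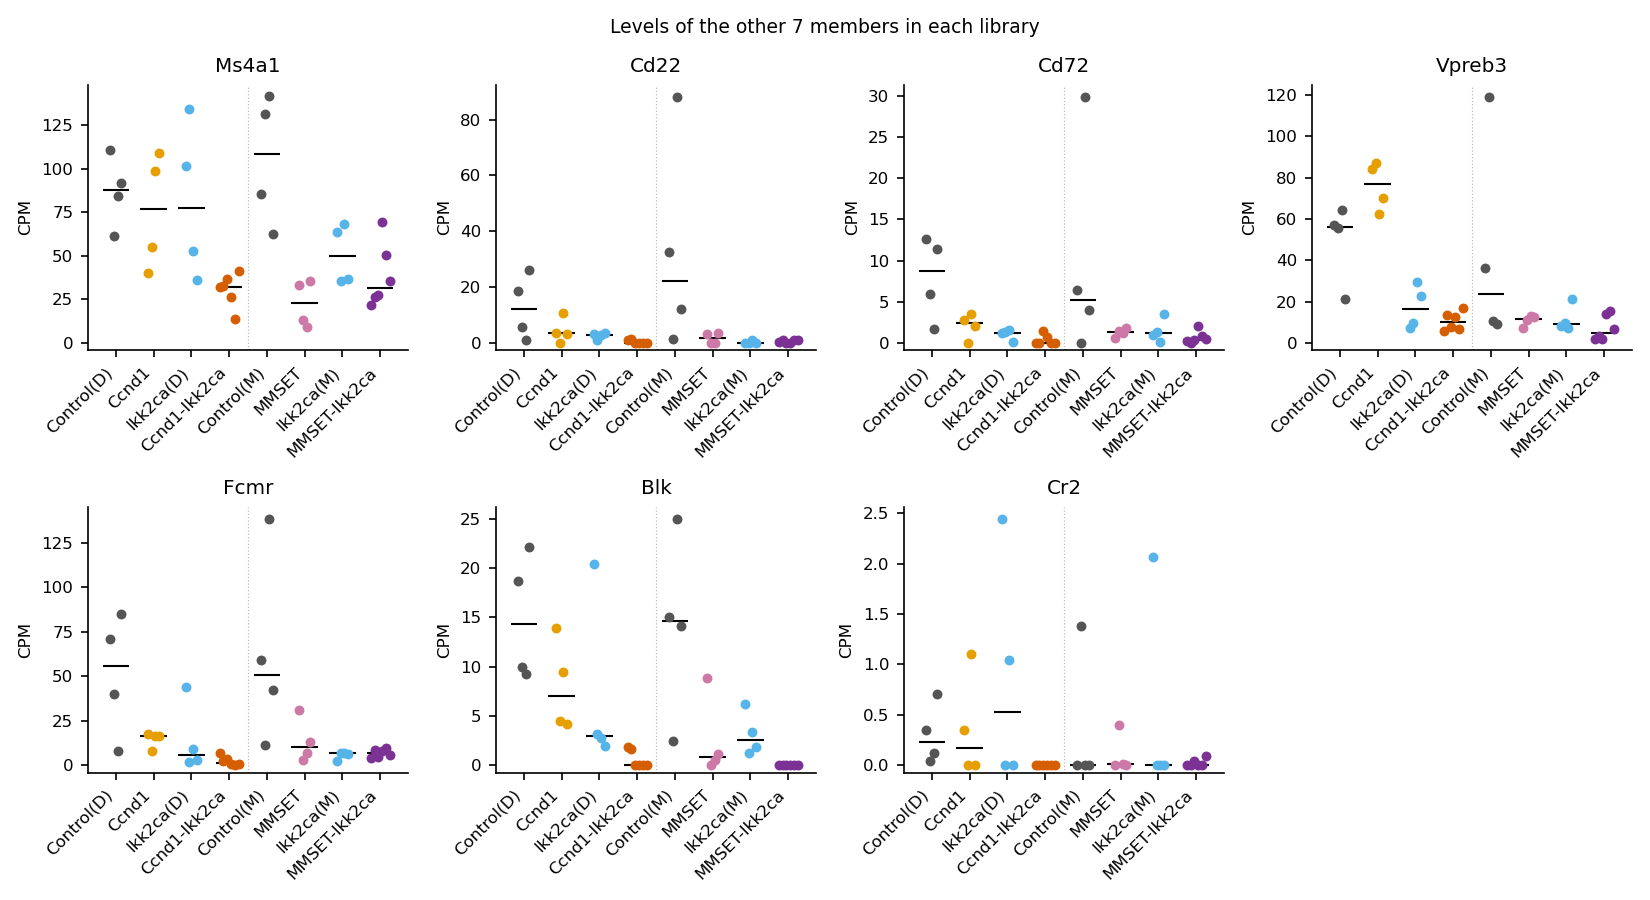
Level of the other 7 members in each library in CPM on linear axes, by group; bars are group medians and the dotted line parts the cohorts. Control libraries differ widely among themselves (Cd22 from 1.47 to 88.1 CPM in Control(M)), while the double groups sit near 0 for Cd22, Cd72, Blk and Cr2.

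Counted over members, most calls against a control fell in the 2 double groups. In Ccnd1-Ikk2ca against Control(D) 5 of 9 members were called lower (Cd79a, Ms4a1, Vpreb3, Fcmr and Blk), with 5.32% of 15323 genes called lower. The median log2 difference was -4.48 over the members, also with Cr2 set at the level of 3 reads over the group, and 0.02 over all genes. In MMSET-Ikk2ca against Control(M) 7 of 8 tested members were called lower (those 5, Cd79b and Cd22), with 3.41% of 15416 genes called lower and medians of -3.60 and 0.01. The count fell to 3 in D without Control(D) replicate 1 or 4. In M it fell to 4 without Control(M) replicate 3 and to 3 without Control(M) replicate 1 or MMSET-Ikk2ca replicate 1, 2, 3 or 6. No member was called higher by edgeR in any of the 16 comparisons.

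Against the single-transgene groups the counts were smaller. Ccnd1-Ikk2ca had 1 of 9 members lower than in Ikk2ca(D), Cd79a, with 0.372% of all genes, and 3 of 9 lower than in Ccnd1, with 3.39%. MMSET-Ikk2ca had 2 of 8 lower than in Ikk2ca(M), with 0.532% of all genes, and 2 of 8 lower than in MMSET, with 0.941%, and these were Cd79a and Blk both times.

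For single transgenes, MMSET had 1 of 8 members called lower, with 0.175% of all genes, and 3 of 8 without MMSET replicate 1 (Cd79a, Ms4a1 and Fcmr). Before adjustment all 8 had an edgeR p under 0.05 in MMSET, all with values below 0. Their median log2 difference was -2.23, against 0.01 over all genes. The MMSET count was 0 without Control(M) replicate 1, 2 or 3 or MMSET replicate 2 or 3. Ikk2ca(M) had 1 of 8, Fcmr, with 0.143% of all genes, and 0 without any of the 14 libraries on which that call depended. There all 8 values were below 0, with a median of -2.05, and 4 had an unadjusted edgeR p under 0.05. Ikk2ca(D) had 0 of 9 by edgeR, with 0.0392% of all genes called lower; limma voom also called 0 and DESeq2 called 1, and before adjustment 3 members had p under 0.05. Ccnd1 had 0 of 9, with 0.0% of all genes called lower, no member at an unadjusted p under 0.05 and 0 calls by DESeq2 or limma voom. Between the controls of the cohorts 0 of 9 members were called, with 0.0% of all genes, and between the effects of Ikk2ca in the cohorts also 0 of 9, with 0.0% of all genes; in both, 0 members had an unadjusted p under 0.05 and DESeq2 and limma voom called 0.

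**Figure D4:**
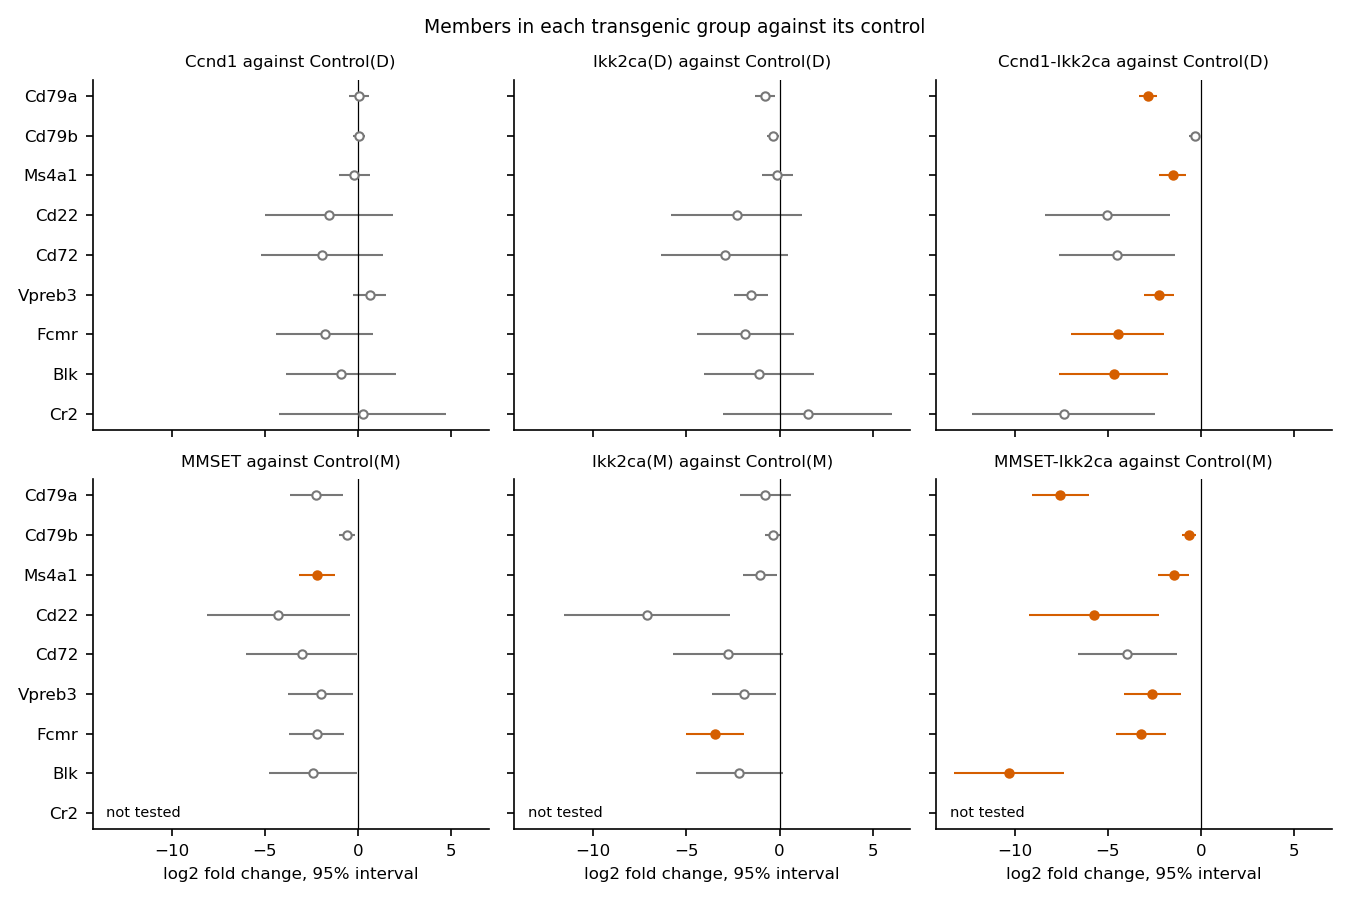
Log2 fold change of each member for the 6 transgenic groups, each against the control of its cohort, with 95% intervals; filled orange points passed an edgeR adjusted p of 0.05, open grey points did not, and Cr2 was not tested in cohort M. Cd79a lies at -2.86 (-3.36 to -2.36) in Ccnd1-Ikk2ca and at -7.55 (-9.07 to -6.04) in MMSET-Ikk2ca. Fitted values of members near 0 reads, such as Blk in MMSET-Ikk2ca, depend on the prior count.

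Ranked by mean TPM within a group, Cd79a led in Control(D), Ccnd1, Ikk2ca(D) and Control(M), at 171 ± 28.2 (SD, n = 4) in Control(D) and 97.8 ± 12.9 in Control(M). Cd79b was second there, at 77.6 ± 9.71 and 77.3 ± 11.1. In the other 4 groups Cd79b led, though the chains did not differ beyond their spread in Ikk2ca(M) (62.8 ± 17.1 and 59.3 ± 23.4) or in MMSET (42.3 ± 11.015 and 17.8 ± 19.9), where Cd79a exceeded Cd79b in replicate 1. In MMSET-Ikk2ca Cd79a, at 0.692 ± 0.594 (SD, n = 6), ranked below Vpreb3, Ms4a1 and Fcmr. Over the groups, mean TPM of Cd79a ran from Control(D) through Ccnd1 (155 ± 40.9), Control(M), Ikk2ca(D) (91.2 ± 10.4), Ikk2ca(M), Ccnd1-Ikk2ca (27.9 ± 7.25, n = 6) and MMSET (17.8 ± 19.9) to MMSET-Ikk2ca. The intervals of mean ± SD of neighbours in that order overlapped except at the steps from Ccnd1 to Control(M) and from Ikk2ca(M) to Ccnd1-Ikk2ca.

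By the likeness of mean log2 CPM over the 8 groups, among 7335 genes, the genes most like Cd79a were Man1a (Pearson r = 0.993), Mzb1 (0.993), Endod1 (0.991), Sash3 (0.984) and Hdac9 (0.983). Mzb1, a chaperone of antibody assembly, had group means of 789 CPM in Control(D), 266 in Ccnd1-Ikk2ca, 622 in Control(M) and 29.0 in MMSET-Ikk2ca. Man1a, a mannosidase of glycan trimming, went from 248 in Control(M) to 10.03 in MMSET-Ikk2ca. For Ms4a1 the most alike were Anks1 (0.987), Strn3, Lnx2, Mef2d and Tbc1d10c (0.965). Among members, Cd79a was most like Blk (0.904) and least like Fcmr (0.378). These points share libraries and cohorts, and the values are descriptions.

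Other surface proteins of B cells, a list of 25 genes, were more often called lower than higher in the double groups. All those called higher are named here, and most of those called lower are not. In Ccnd1-Ikk2ca 6 were called lower and 1 higher against Control(D), with a median log2 difference of -1.60, and in MMSET-Ikk2ca 8 lower and 2 higher against Control(M), with -2.32. Fcgr2b, an inhibitory Fc receptor, fell by 3.07 in Ccnd1-Ikk2ca (edgeR adjusted p = 1.77e-04). Ly6d rose in both, by 1.91 and 1.14 (edgeR adjusted p = 0.00195 and 8.15e-04), and Cd40, a receptor for T cell help, rose by 2.06 in MMSET-Ikk2ca (edgeR adjusted p = 0.00232).

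A list of 25 genes of B cell receptor signalling held activating and inhibitory ones together. Of these, 10 were lower and 2 higher in Ccnd1-Ikk2ca (median -0.49) and 6 lower and 1 higher in MMSET-Ikk2ca (median -0.54). The Src-family kinase Lyn fell by 2.32 in Ccnd1-Ikk2ca (edgeR adjusted p = 2.68e-05). The adaptor Lat2 fell by 2.92 and 3.97 in the double groups (edgeR adjusted p = 1.71e-04 and 0.0163), and the adaptor Dok3 by 1.40 and 1.70 (edgeR adjusted p = 6.85e-04 and 3.08e-04). Prkcb, a protein kinase C, went from 6.29 to 0.0167 CPM in Ccnd1-Ikk2ca (edgeR adjusted p = 2.93e-05).

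Among 17 tested B cell transcription factors, 9 were lower in Ccnd1-Ikk2ca (median -1.39) and 5 in MMSET-Ikk2ca (median -0.75), and none was called higher. Ets1 fell by 2.93 and 4.22 (edgeR adjusted p = 2.93e-05 and 5.52e-06), and Pou2f1, which binds the octamer, by 1.15 and 2.16 (edgeR adjusted p = 0.00273 and 2.31e-04). Ebf1, early B cell factor, fell by 3.07 in Ccnd1-Ikk2ca (edgeR adjusted p = 0.00256) and had 2 reads over the MMSET-Ikk2ca libraries against 2352 in Control(M) (edgeR adjusted p = 1.89e-04). Of 12 antibody constant regions Iglc3, higher in Ccnd1-Ikk2ca, was the only call in a double group against its control (2.10, edgeR adjusted p = 0.0425). Of 8 genes of B cell precursors 3 could be tested, and 2, Cd93 and Vpreb1, were called lower in Ccnd1-Ikk2ca (edgeR adjusted p = 0.0307 and 0.0492), Vpreb1 from 0.146 to 0 CPM. The medians over all genes are those given above for the members, and so are the shares called lower, 5.32% in Ccnd1-Ikk2ca and 3.41% in MMSET-Ikk2ca. The share of all genes called higher is not given here.

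Markers of other cells moved with some of these results. Against the controls 5.32% of all genes were called lower in Ccnd1-Ikk2ca and 3.41% in MMSET-Ikk2ca. Of 20 genes that mark B cells and are low in plasma cells, 4 of them members, 11 were lower and 1 higher in Ccnd1-Ikk2ca, and 10 lower and 1 higher of 19 tested in MMSET-Ikk2ca. Summed without the members and Cd74, 15 of them lay at 502 to 1325 CPM in Control(D), 121 to 233 in Ccnd1-Ikk2ca, 307 to 2026 in Control(M) and 172 to 251 in MMSET-Ikk2ca. The class II invariant chain Cd74 went the other way, from 2903 to 7558 CPM in D and from 3917 to 10675 CPM in M. The class II beta chain H2-Ab1 went from 415 to 2.52 CPM in M. H2-Ab1, H2-Aa and H2-Eb1 had the highest Control(M) means of the 15, at 415, 182 and 166 CPM. From Control(M) to MMSET-Ikk2ca the means of Fcer2a (0.898 to 40.0 CPM), Cd37 (91.2 to 93.8) and Cd55 (15.6 to 21.1) did not fall. Of 11 neutrophil markers 1 was called lower in Ccnd1-Ikk2ca, near the share of all genes called lower, and 3 in MMSET-Ikk2ca. The 11 summed to 57.3 to 558 CPM in Control(D), 1.302 to 233 in Ccnd1-Ikk2ca, 41.1 to 210 in Control(M) and 0.791 to 15.0 in MMSET-Ikk2ca. Of 14 plasma cell markers 6 were lower in Ccnd1-Ikk2ca, and 5 lower and 1 higher in MMSET-Ikk2ca, with median log2 differences of -0.56 and -0.53. The 14 summed to 54530 to 100590 CPM in Control(D) and 8134 to 20620 in Ccnd1-Ikk2ca. In cohort M they summed to 31453 to 42759 CPM in Control(M) and 5230 to 7096 in MMSET-Ikk2ca. All libraries of Ikk2ca(D), MMSET and Ikk2ca(M) also summed below those of their control. These sums follow the most abundant of the 14 and do not describe each marker. Mzb1 and Bhlha15, for example, had means of 789 and 168 CPM in Control(D). The sum of the 15 B cell genes moved with Cd22, Cd72, Fcmr and Blk, and its part in their differences was not tested. In the same libraries the log2 difference of Cd79b was -0.36 in Ccnd1-Ikk2ca and -0.67 in MMSET-Ikk2ca.

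Among controls these low members varied with the library. Control(M) replicate 3 held the most Cd22, Cd72, Fcmr and Blk of its group (88.1, 29.9, 138 and 25.0 CPM) and replicate 2 the least (1.47, 0, 11.4 and 2.50 CPM). Cd79a, at 330 and 351 CPM, was alike in those libraries.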

How the data were processed

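Estimated counts (salmon's NumReads) and TPM per transcript were deposited by the authors for each of 36 libraries; Salmon 1.3.0, bcl2fastq 2.20.0.422, DESeq2 1.32.0 and GRCm38 are named in the submitters' processing notes. The transcript set's release is not given in the sources used here. Values were summed per gene through GENCODE vM21, which matched 139960 of 140825 transcripts; the rest held 0.0636% to 0.134% of reads. Summed expected counts were rounded. Groups came from the labels. edgeR 4.0.16 (TMM, filterByExpr, robust quasi-likelihood test, Benjamini-Hochberg threshold 0.05) was fitted in 3 fits: cohort D (15323 genes), cohort M (15416) and all 36 libraries (17116) for comparisons between cohorts. Standard errors were derived from each log2 fold change and its F statistic. Levels are CPM after TMM over 36 libraries. Intervals and the floor of 3 reads cover counting or sample spread only, since reads carry no molecular identifiers. Alternatives were DESeq2 1.42.0 (also its size factors), limma 3.58.1 voom, no filter, immunoglobulin genes left out, a replicate block, replicates 1 to 4 only, a single fit and each library left out. The procedure was tested on simulated counts. The members and gene lists were chosen with earlier results of these data known; up to 4 genes of a list with the smallest p per comparison, and 5 genes most like Cd79a and Ms4a1 (average log2 CPM of at least 2), could be named. Fcgr2b and other list genes in the text come from that rule. Cd74, H2-Ab1, H2-Aa, H2-Eb1, Fcer2a, Cd37 and Cd55 were chosen after their values were seen. The result of 1 list gene is not reported here.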

Additional observations from a re-analysis of the deposited data

Results flagged for a closer look

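Of 69 member and group pairs, 11 had a library far from the others of its group, by its gap to the nearest library over the group's CPM range. The rule is set to flag about 1 in 20 groups of normally distributed values. Counts near 0 do not meet that, so the 11 cannot be set against that rate. Cr2 in Control(M) and in Ikk2ca(M) had reads in 1 library only, which the rule always flags. Above their group lay MMSET replicate 1 with 188 CPM of Cd79a and 8.86 CPM of Blk, MMSET-Ikk2ca replicate 5 with 4.59 CPM of Cd79a, Ikk2ca(M) replicate 3 with 0.941 CPM of Cd22, Ikk2ca(M) replicate 4 with 21.2 CPM of Vpreb3 and Ikk2ca(D) replicate 1 with 20.4 CPM of Blk. For Cr2 these were Control(M) replicate 2 with 1.38 CPM, MMSET replicate 2 with 0.399 CPM and Ikk2ca(M) replicate 1 with 2.06 CPM. Below their group lay, for Fcmr, Ccnd1 replicate 2 with 7.93 CPM and Ikk2ca(M) replicate 1 with 2.50 CPM.

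In edgeR's tests of differences between effects Cd79a was the member called. Its interaction of Ccnd1 and Ikk2ca was -2.12 on the log2 scale, a call lost in 13 of 18 fits that left out a library, and its effect of both transgenes in cohort M minus that in cohort D was -4.69. DESeq2 called 2 members lower in the interaction of MMSET and Ikk2ca, and 1 lower and 1 higher in the difference of the double effects.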

How the results depend on the processing

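Of 26 member values called by edgeR, none reversed in 727 checks, 587 checks kept the call and 140 lost it, and 11 values were called under every alternative. The number of members called lower against Control(D) in Ccnd1-Ikk2ca was 5, with 9 by DESeq2, 3 with replicates 1 to 4 only and 3 to 6 when a library was left out. In MMSET-Ikk2ca against Control(M) it was 7, with 4 without the low-count filter, 4 with replicates 1 to 4 only and 3 to 7 when a library was left out. For Ikk2ca(D) DESeq2 gave 1 against 0. For MMSET, with 1, DESeq2 gave 3, limma voom 2, no filter 0, replicates 1 to 4 only 0, and left-out libraries 0 to 3. For Ikk2ca(M), with 1, DESeq2 gave 2, no filter, replicates 1 to 4 only, limma voom and a single fit of 36 libraries each 0, and left-out libraries 0 to 1. Ccnd1-Ikk2ca against Ikk2ca(D), with 1, gave 3 by DESeq2, 2 by limma voom, 0 in the single fit and 1 to 2 with libraries left out (2 without Ikk2ca(D) replicate 4); against Ccnd1, with 3, DESeq2 and limma voom gave 5. The interaction in D, with 1, gave 0 with replicates 1 to 4 only, 0 in the single fit and 0 to 1 with libraries left out; that in M, with 0, gave 2 by DESeq2, 1 without immunoglobulin genes, 1 in the single fit and 0 to 1 with libraries left out (1 without MMSET-Ikk2ca replicate 5). MMSET-Ikk2ca against MMSET, with 2, gave 1 by limma voom. MMSET-Ikk2ca against Ccnd1-Ikk2ca, with 2, gave 1 without the filter, 1 with replicates 1 to 4 only, 1 by limma voom and 1 to 2 with libraries left out; DESeq2 called 1 member higher there and 1 higher in the difference of the double effects, against 0. Same-numbered libraries did not deviate together (correlations -0.0242 to 0.0883 in D and -0.0420 to 0.107 in M), so the numbers were not taken as pairing; with a replicate block the counts were 1 for Ikk2ca(D), 0 for MMSET, 0 for Ikk2ca(M) and 3 for MMSET-Ikk2ca against its control. The cause of these changes was not tested. Blk, Cd22, Cd72 and Cr2 had libraries at 0 reads, where a level under that of 3 reads was not detectable at this depth.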
